A study of Mus musculus with 18 samples.

Results

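The genes described here are 7 immediate-early transcription regulators, Nr4a1, Fos, Fosb, Jun, Junb, Egr1 and Ier2. They were chosen by name, from a table of 16248 genes measured by bulk RNA sequencing (RNA-seq) in 18 libraries, and all 7 were found in it. The libraries came from endothelial cells (ECs), the lining cells of blood vessels, which were dissociated from mammary tissue of FVB mice and sorted as live CD45-negative, CD31-positive cells. Wild-type mammary fat pads gave the normal ECs, and tumour ECs came either from tumours arising spontaneously in MMTV-PyMT mice or from implanted breast tumours. Each tissue was injected with phosphate-buffered saline (PBS) or with cGAMP, a cyclic dinucleotide that activates the innate immune adaptor STING, and was collected 3 h later, so that 6 groups of 3 libraries were formed. In MMTV-PyMT mice a promoter used by mammary epithelial cells drives the polyoma middle T oncogene, and for the implanted model cells cultured from such a tumour were put into the fat pad of FVB hosts. The study describes separate mice from independent experiments within each group. The labels do not tie single libraries to mice or experiments, so an experiment could not be fitted as a batch.

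Immediate-early genes are transcribed within minutes of a stimulus without any need for newly made protein. Growth factors, shear stress, cytokines and stress act through MAP kinases, which phosphorylate ternary complex factors, CREB and ATF proteins already bound at these promoters, and the transcripts are short-lived. Fos and Fosb encode FOS proteins that pair with the JUN proteins of Jun and Junb to form the AP-1 transcription factor, Egr1 encodes a zinc finger factor, Nr4a1 an orphan nuclear receptor, and Ier2 a nuclear regulator whose function is less defined. In ECs these genes are known to respond to vascular endothelial growth factor and flow, and in any tissue enzymatic dissociation and sorting are known to switch them on.

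As the 7 genes shared a direction in several comparisons, the 150 bases before their RefSeq start sites were read, to show which sequence features they have in common. Sequences of 5 of the 7 genes were read from the RefSeq promoter table (GRCm38.p6). No entry was used for Ier2 or Egr1, so the motif counts below do not cover these genes. Each sequence runs 5′ to 3′ towards the start site on the strand of the gene. Capitals mark every match, on either strand, to TGACG (the core of the site that CREB and ATF proteins bind), TGCGTCA (a longer form that overlaps TGACG read on the other strand), TGACATCA (a variant site bound by JUN and ATF proteins) and TATAAA (the TATA box).
Nr4a1, chr15:101266696-101266845, plus strand: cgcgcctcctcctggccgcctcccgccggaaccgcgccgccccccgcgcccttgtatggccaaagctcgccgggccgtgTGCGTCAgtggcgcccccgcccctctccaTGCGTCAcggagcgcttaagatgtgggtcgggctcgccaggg
Fos, chr12:85473740-85473889, plus strand: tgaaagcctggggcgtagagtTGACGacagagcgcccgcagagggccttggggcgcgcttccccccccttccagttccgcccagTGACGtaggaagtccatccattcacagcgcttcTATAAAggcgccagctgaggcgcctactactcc
Fosb, chr7:19310046-19310195, minus strand: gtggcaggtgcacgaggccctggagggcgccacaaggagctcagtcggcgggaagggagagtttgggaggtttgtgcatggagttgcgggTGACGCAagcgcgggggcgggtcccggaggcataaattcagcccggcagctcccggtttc
Jun, chr4:95052223-95052372, minus strand: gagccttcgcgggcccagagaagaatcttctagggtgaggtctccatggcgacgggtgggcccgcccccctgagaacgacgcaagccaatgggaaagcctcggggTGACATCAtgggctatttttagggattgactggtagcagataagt
Junb, chr8:84978749-84978898, minus strand: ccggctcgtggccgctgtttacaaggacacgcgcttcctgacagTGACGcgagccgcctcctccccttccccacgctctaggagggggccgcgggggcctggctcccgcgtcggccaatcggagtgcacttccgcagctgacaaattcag
TGACG was present in 4 of the 5 sequences (Nr4a1, Fos, Fosb and Junb), against 13.3% of the 32851 promoter windows of the same length. TGCGTCA was present in Nr4a1 (2 matches) and Fosb, against 1.32% of windows, TGACATCA in Jun, against 2.32%, and TATAAA in Fos, against 7.57%. The complete CREB site TGACGTCA was in 0 of the 5 (1.36% of windows), the AP-1 site TGANTCA in 0 (4.24%), the EGR site GCGTGGGCG in 0 (0.426%) and the CArG box bound by serum response factor in 0 (0.916%). These matches describe letters in a short window, and binding was not measured. Sites outside the window or with other letters were not counted, so a count of 0 does not show that a gene lacks the site.

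By the GENCODE M21 annotation of the same genome (mm10, GRCm38), the genes lie on chromosome 15 (Nr4a1, 101254269 to 101274795, plus strand), chromosome 12 (Fos, 85473890 to 85477273, plus strand), chromosome 7 (Fosb, 19302696 to 19310051, minus strand), chromosome 4 (Jun, 95049034 to 95052222, minus strand), chromosome 8 (Junb, 84974484 to 84978718, and Ier2, 84661331 to 84662852, both minus strand) and chromosome 18 (Egr1, 34859823 to 34864984, plus strand). The RefSeq start of Nr4a1 lies inside the annotated gene. All 7 are protein-coding and mostly compact, with a median span of 4235 bases against 18694 bases for the 16045 genes of the table with an annotated span, from 1522 bases for Ier2 to 20527 bases for Nr4a1. Jun shares 232 of its 3189 exonic bases (7.28%) with the antisense gene Junos, and Junb shares 173 of 2301 (7.52%) with Prdx2 on the other strand. The sources do not say if strand was used in counting, so a part of the reads of these 2 genes is uncertain.

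Values are FPKM (fragments per kilobase of exon, scaled by the authors with 1 denominator for each library), and whole reads could be recovered from them. The denominators were 0.735 to 1.154 times the recovered reads, so they did not follow the size of the library alone. A library held 9185139 to 12201088 recovered reads, and the member value with the fewest reads, Nr4a1 in implanted cGAMP 2, still rested on 990 reads (95% exact Poisson interval 929 to 1054, counting error only). The cGAMP labels were checked on 6 interferon-response genes, all 6 of which rose in each tissue. The endothelial markers Pecam1 (138 to 386 FPKM over all libraries) and Cdh5 (265 to 782 FPKM) were high throughout and the leukocyte marker Ptprc was at 0.156 to 9.73 FPKM, whereas the epithelial marker Epcam reached 215 FPKM and the mural marker Pdgfrb 101 FPKM, so transcripts of other cell types were present in the sorted samples.

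All 7 genes were abundantly expressed in every library. Fos, the prototype AP-1 subunit, was the highest of them per unit of length, with 369, 799 and 1481 FPKM as lowest, median and highest value, and it ranked between place 11 and place 84 among all genes of a library. Junb, whose product is a JUN protein of weaker activation, followed with 218 to 492 FPKM, and Jun, its stronger relative, with 184 to 419 FPKM. The zinc finger factor Egr1 ranged from 99.7 to 363 FPKM and Ier2 from 89.8 to 271 FPKM. Fosb, the second FOS protein, ranged from 50.5 to 172 FPKM and the nuclear receptor Nr4a1 from 33.5 to 149 FPKM.

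The order of group means, Fos over Junb, Jun, Egr1, Ier2, Fosb and Nr4a1, was the same in 5 of the 6 groups, and in PBS-treated MMTV-PyMT ECs Ier2 stood above Egr1 and Nr4a1 above Fosb. The 7 genes together took 0.950% of all recovered reads in normal PBS libraries (0.827 to 1.018%), 0.742% in MMTV-PyMT PBS (0.637 to 0.866%) and 0.360% in implanted PBS (0.307 to 0.402%). After cGAMP the shares were 0.684% (0.603 to 0.757%), 0.528% (0.490 to 0.576%) and 0.275% (0.258 to 0.294%). The mean share in each tissue was thus lower than under PBS, but a share is scaled by total reads. In FPKM the 7 genes summed on average to 2969 under PBS and 2067 after cGAMP in normal ECs. The sums were 2432 and 1926 in MMTV-PyMT ECs. In implanted ECs they were 1267 (SD 147) and 1211 (SD 62.2), a difference within the spread of the libraries. In bulk samples fewer cells with a transcript and less of it per cell cannot be told apart.

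**Figure D1:**
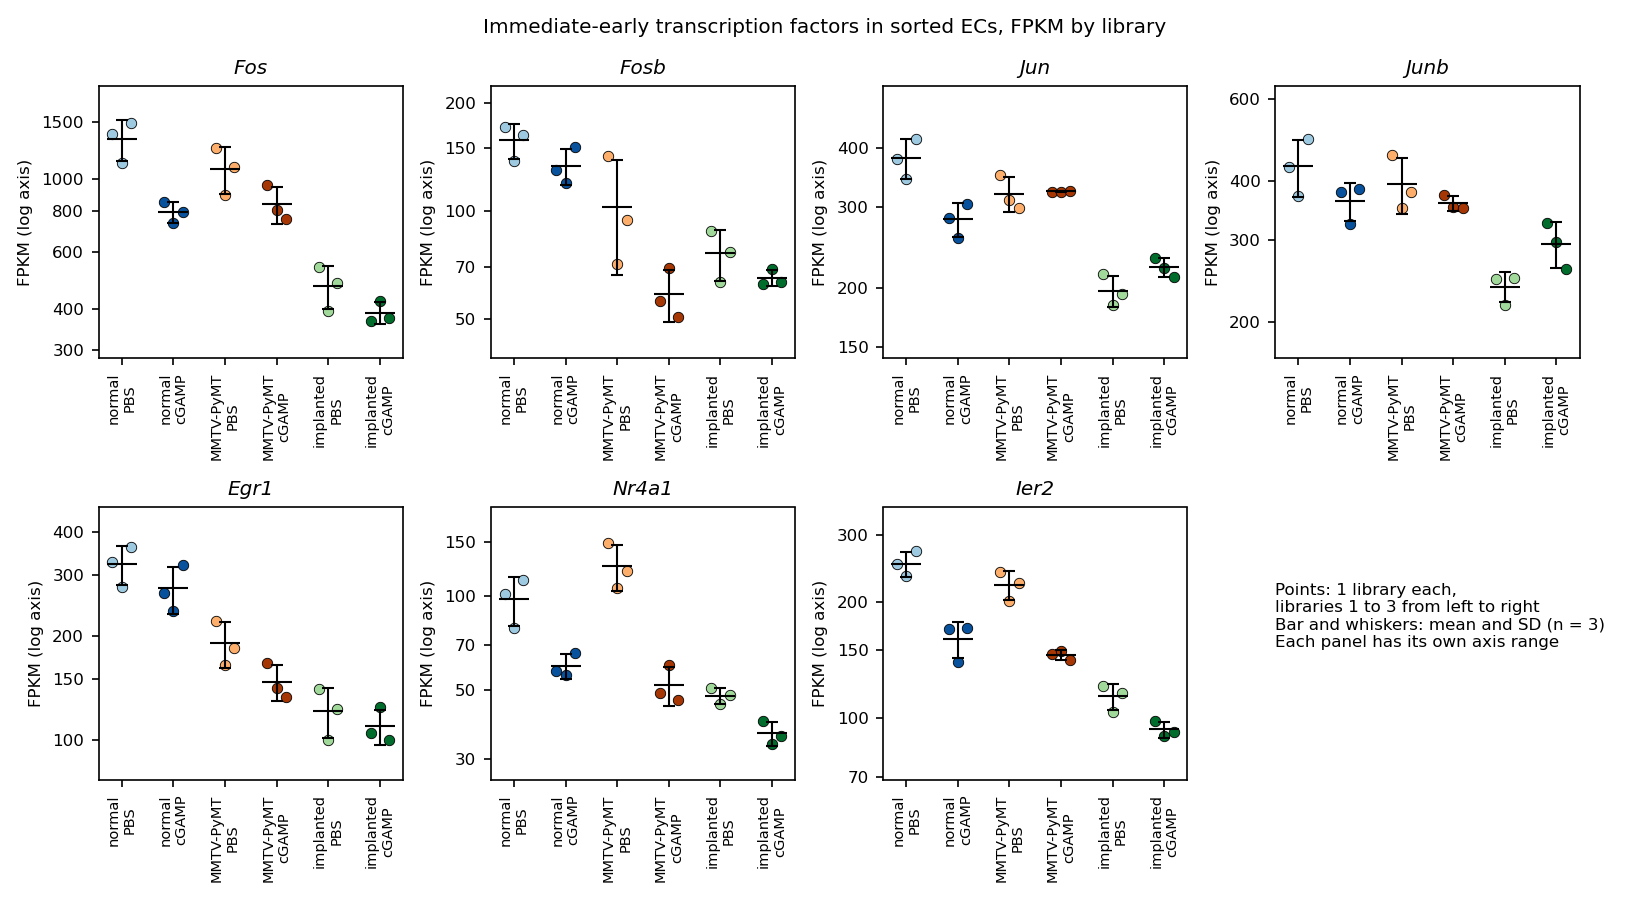
FPKM (log axis, a separate range for each gene) of the 7 immediate-early genes in the 18 libraries, with 1 point per library and the mean and SD of 3 libraries per group. PBS-treated implanted ECs lie below PBS-treated normal ECs for every gene, and Nr4a1 and Ier2 lie lower after cGAMP in each tissue.

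Along the 6 groups the genes did not share one order. Fos was highest in normal PBS (1326 ± 186 FPKM, SD, n = 3) and next in MMTV-PyMT PBS (1077 ± 173), MMTV-PyMT cGAMP (840 ± 109) and normal cGAMP (792 ± 57.0), neighbours whose libraries overlapped, and it was separated from them in implanted PBS (472 ± 72.0) and implanted cGAMP (390 ± 29.7), which overlapped each other. Nr4a1 was highest in MMTV-PyMT PBS (125 ± 21.3 FPKM), where its libraries overlapped normal PBS (97.9 ± 17.4), and lowest in implanted cGAMP (36.4 ± 3.16), below all libraries of implanted PBS (48.0 ± 2.88). Fosb was highest in normal PBS (158 ± 17.7 FPKM) and lowest in MMTV-PyMT cGAMP (58.8 ± 9.71), and each neighbouring pair of groups in its order overlapped.

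To ask how ECs of the 3 tissues differed before any STING activation, PBS-treated groups were compared with each other. All 7 genes were lower in implanted than in normal ECs, and in each of them the 3 implanted libraries lay below the 3 normal ones. Over all 13983 tested genes 23.6% were lower in this comparison, and 30.2% had all 3 implanted libraries below all 3 normal ones. The 7 genes had a median log2 change of -1.05, against 0.01 for all tested genes. When values were scaled by total reads, the median of all genes shifted by -0.14, and 34.5% of all calls were higher instead of 51.4%.

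Among the FOS genes, Fos stood at 1377, 1120 and 1481 FPKM in the normal libraries and at 538, 395 and 482 FPKM in the implanted ones. The lowest normal library thus held more than 2 times the FPKM of the highest implanted library. On the log2(FPKM + 1) scale Fos fell by 1.49 (SE 0.15; limma, Benjamini-Hochberg adjusted p = 6.81e-07). Fosb had 172, 138 and 164 FPKM in normal and 88.2, 63.6 and 76.8 FPKM in implanted libraries, without overlap. Its log2 change was -1.05 (SE 0.19; limma, Benjamini-Hochberg adjusted p = 3.25e-04).

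Of the JUN genes, Jun held 380, 344 and 419 FPKM in normal libraries and 214, 184 and 195 FPKM in implanted ones, a log2 change of -0.94 (SE 0.09; limma, Benjamini-Hochberg adjusted p = 7.19e-07). Junb held 428, 372 and 492 FPKM against 248, 218 and 249 FPKM, a log2 change of -0.84 (SE 0.12; adjusted p = 3.52e-05 by the same test). The implanted mean was 0.519 times the normal mean for Jun, 0.553 times for Junb, 0.482 times for Fosb and 0.356 times for Fos, and differences between these genes were not tested.

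Of the other 3 genes, Egr1 went from 328, 278 and 363 FPKM in normal ECs to 140, 100.1 and 123 FPKM in implanted ECs, a log2 change of -1.41 (SE 0.15; limma, Benjamini-Hochberg adjusted p = 1.73e-06). Ier2 was at 251, 233 and 271 FPKM in normal and 121, 104 and 116 FPKM in implanted libraries, with a log2 change of -1.14 (SE 0.09; adjusted p = 9.42e-08). Nr4a1 was at 102, 78.9 and 113 FPKM against 50.8, 45.1 and 48.1 FPKM, with a log2 change of -0.999 (SE 0.14; adjusted p = 2.34e-05). In each of the 26 alternative analyses the 7 genes passed the test in the same direction.

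Other transcripts moved between these tissues too. The summed FPKM of 8 mural cell markers was 947 to 1070 in normal PBS libraries and 205 to 247 in implanted ones, with 7 of the 8 lower, and the 5 fibroblast markers summed to 68.7 to 79.6 and 234 to 269 FPKM, with 2 of the 5 higher and 2 lower (Col1a1, a collagen chain, was at 33.8 and 186 FPKM on average). The 10 epithelial markers summed to 498 to 669 and 771 to 1029 FPKM, the 8 endothelial markers to 871 to 994 and 1001 to 1263 FPKM, and the 7 leukocyte markers in the table to 27.6 to 60.0 and 29.4 to 67.7 FPKM. Among 16 heat shock and metal response genes that dissociation is known to raise, 3 were higher and 4 lower in implanted ECs, and their summed FPKM was 1180 to 1399 in normal and 1223 to 1694 in implanted libraries. Hspa1b, an inducible heat shock protein, stood at 29.5 FPKM in normal and at 106 FPKM in implanted ECs (log2 change 1.86; limma, Benjamini-Hochberg adjusted p = 9.74e-06). Among the lower genes of this list, Dnajb4 changed by -1.30 and Hspb1 by -0.93. The table lists 0 values at 0, and the part of other cell types and of dissociation in the lower immediate-early levels was not tested.

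Between the tumour models, 6 of the 7 genes were lower in implanted than in MMTV-PyMT ECs, and the same 6 had all 3 implanted libraries below all 3 MMTV-PyMT libraries. Over all tested genes 24.6% were lower and 30.9% separated in that direction. Scaling by total reads shifted the median of all genes by -0.12, and 30.9% of all calls were higher instead of 45.8%. Each pair of the 3 tissue comparisons shares 1 group of PBS libraries, so they are not independent.

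Nr4a1 had the largest difference of the 7, with 149, 107 and 120 FPKM in MMTV-PyMT libraries against the 45.1 to 50.8 FPKM of implanted ones, and a log2 change of -1.35 (SE 0.14; limma, Benjamini-Hochberg adjusted p = 2.38e-06). Fos stood at 1243, 897 and 1092 FPKM in MMTV-PyMT libraries, well above the 395 to 538 FPKM of implanted ones, with a log2 change of -1.19 (SE 0.15; adjusted p = 1.42e-05). Ier2, with 240, 202 and 224 FPKM in MMTV-PyMT libraries, changed by -0.96 (SE 0.09; adjusted p = 1.62e-06).
Junb, Jun and Egr1 changed by -0.72, -0.69 and -0.65 on the same scale (adjusted p = 2.26e-04, 3.41e-05 and 0.00284). Fosb was at 143, 71.4 and 94.5 FPKM in MMTV-PyMT libraries, which overlapped the 63.6 to 88.2 FPKM of implanted ones, and its log2 difference of -0.38 (95% interval -0.79 to 0.03) did not pass (adjusted p = 0.119). Without MMTV-PyMT PBS 2, its lowest library, Fosb passed as well (-0.61). It also passed with values scaled by total reads (-0.54; limma, adjusted p = 0.0343), where all 7 genes were lower. The mural markers summed to 215 to 295 FPKM in MMTV-PyMT PBS libraries, close to the implanted range. The epithelial markers summed to 1346 to 1744 FPKM, above all implanted PBS libraries. The endothelial markers summed to 644 to 795 FPKM, below the 1001 to 1263 FPKM of implanted PBS libraries. Of these 8 markers 6 were higher and 1 was lower in implanted ECs. The part of all these markers was not tested.

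MMTV-PyMT and normal ECs differed gene by gene. Of the 7 genes 3 were lower and 1 was higher in MMTV-PyMT ECs, where 26.6% of all tested genes were lower and 29.8% higher. Together these were 4 of 7, close to the background of 56.5%. Egr1 was at 221, 165 and 185 FPKM, below all 3 normal libraries, a log2 change of -0.76 (SE 0.15; limma, Benjamini-Hochberg adjusted p = 5.73e-04). Egr1 was also the only member without overlap, 1 of 7 against 32.3% of all tested genes. Fosb changed by -0.67 (adjusted p = 0.00821) and Jun by -0.25 (adjusted p = 0.0314), both with overlapping libraries. Nr4a1 was higher by 0.35 (SE 0.14; adjusted p = 0.0411), also with overlap.
Fos (-0.30), Ier2 (-0.18) and Junb (-0.12) did not pass, with 95% intervals of -0.62 to 0.01, -0.39 to 0.02 and -0.38 to 0.14. Single libraries decided some of these calls. Nr4a1 no longer passed without normal PBS 1 (0.39) or 2 (0.21) or MMTV-PyMT PBS 1 (0.22) or 3 (0.37), Fosb without MMTV-PyMT PBS 2 (-0.43), and Jun without normal PBS 1 (-0.25) or 3 (-0.18) or MMTV-PyMT PBS 2 (-0.23) or 3 (-0.20). Fos passed without normal PBS 2 (-0.42) or MMTV-PyMT PBS 1 (-0.41). Scaling mattered too. With quantile normalisation Nr4a1 no longer passed (0.27; limma, adjusted p = 0.118) and Fos passed as lower (-0.59; adjusted p = 0.00399). In the same comparison 7 of the 8 mural markers were lower (median log2 change -2.34), and 6 of the 10 epithelial markers were higher and 1 lower (median 1.27). Of the 8 endothelial markers 4 were lower and 0 higher (median -0.33). Of the heat shock and metal response genes 3 were higher and 6 lower. The part of all these in the immediate-early values was not tested.

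**Figure D2:**
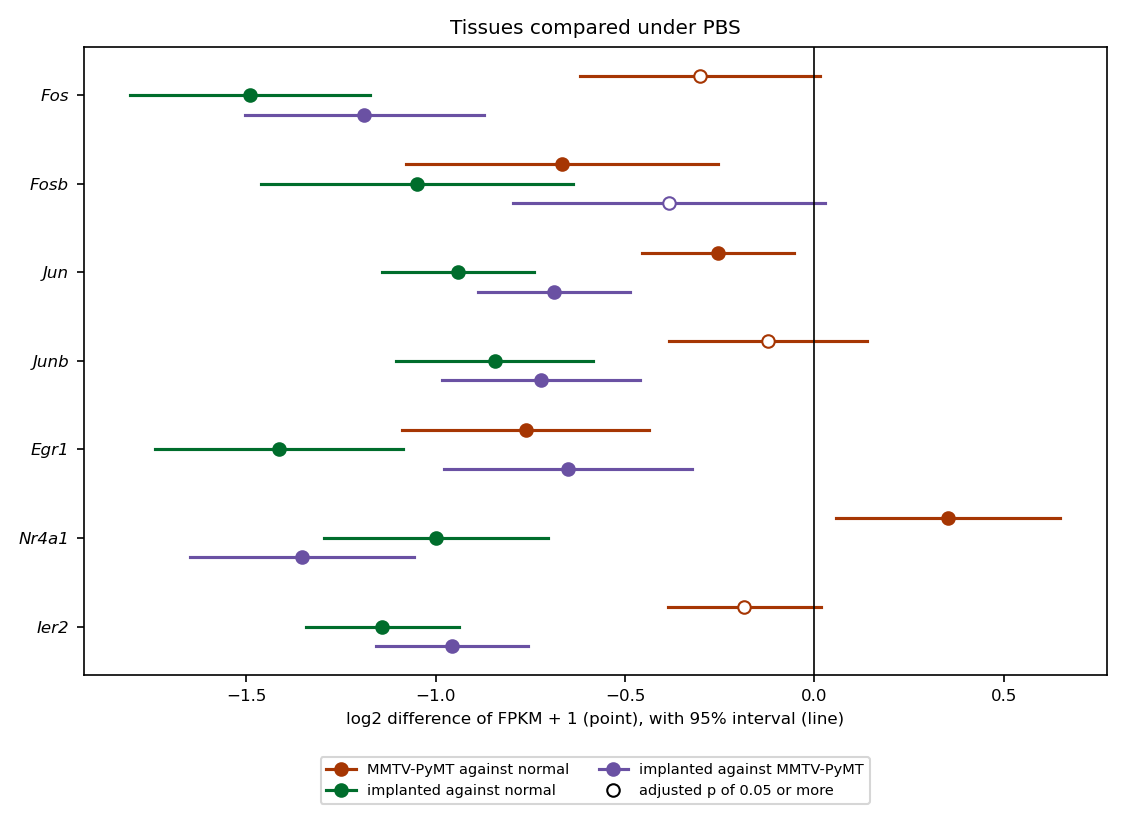
Log2 differences of FPKM + 1 between tissues under PBS for the 7 genes, with 95% intervals and filled points for an adjusted p under 0.05. The differences of implanted from normal ECs run from -1.49 (Fos) to -0.84 (Junb), and those of MMTV-PyMT from normal ECs from -0.76 (Egr1) to 0.35 (Nr4a1).

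The study profiled these ECs to ask how those of spontaneous tumours respond to cGAMP beside those of the other tissues, and cGAMP was compared with PBS in each. In normal ECs 4 of the 7 genes fell and 0 rose, against 18.2% and 13.7% of all tested genes, and the 4 that fell, Fos, Nr4a1, Ier2 and Jun, were also those with all 3 cGAMP libraries below all 3 PBS libraries (28.0% of all tested genes). Their calls held in each of the 26 alternative analyses.

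Fos was at 849, 735 and 793 FPKM after cGAMP, against 1377, 1120 and 1481 FPKM under PBS. It fell by 0.73 on the log2(FPKM + 1) scale (SE 0.15; limma, Benjamini-Hochberg adjusted p = 0.00156), to 0.598 times the PBS mean. Nr4a1 was at 57.6, 56.0 and 65.9 FPKM after cGAMP, below its 78.9 to 113 FPKM under PBS, and fell by 0.69 (SE 0.14; adjusted p = 0.00154). Ier2, at 170, 140 and 171 FPKM, fell by 0.65 from its 233 to 271 FPKM (SE 0.09; adjusted p = 1.11e-04). Jun, at 283, 257 and 304 FPKM, fell by 0.43 from its 344 to 419 FPKM (SE 0.09; adjusted p = 0.00259).
Fosb, Junb and Egr1 overlapped between cGAMP and PBS and did not pass. Their log2 differences were -0.24 (95% interval -0.65 to 0.17), -0.24 (-0.50 to 0.02) and -0.23 (-0.56 to 0.09), so that a fall like that of Jun lies within each interval. Of the 16 heat shock and metal response genes 8 fell and 4 rose in the same comparison. Hspb1, a small heat shock protein, fell by 0.92 and the metallothionein Mt2, a metal-binding protein, rose by 3.47. The summed level of the list was 1041 to 1250 FPKM after cGAMP and 1180 to 1399 FPKM under PBS, and its part in the lower levels of Fos and the others was not tested.

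In MMTV-PyMT ECs 3 of the 7 genes fell and 0 rose, against 4.57% and 7.42% of all tested genes. Nr4a1 was at 48.9, 60.4 and 46.4 FPKM after cGAMP and at 149, 107 and 120 FPKM under PBS, without overlap. It stood at 0.414 times the PBS mean, a log2 change of -1.25 (SE 0.14; limma, Benjamini-Hochberg adjusted p = 9.44e-06), the largest cGAMP change of a member in the 3 tissues. Ier2 was at 147, 149 and 141 FPKM, below its 202 to 240 FPKM under PBS, and fell by 0.60 (SE 0.09; adjusted p = 4.14e-04).
Fosb was at 56.3, 69.5 and 50.5 FPKM after cGAMP, just below the lowest of its widely spread PBS libraries (143, 71.4 and 94.5 FPKM). It fell by 0.75 (SE 0.19; adjusted p = 0.0186), but did not pass without MMTV-PyMT PBS 1 (-0.49), MMTV-PyMT PBS 3 (-0.78) or MMTV-PyMT cGAMP 3 (-0.65), or when the other 4 groups were left out of the fit. The 3 that fell were those with separated libraries, against 18.6% of all tested genes.
Fos, at 962, 805 and 753 FPKM, and Egr1, at 167, 141 and 133 FPKM, overlapped their PBS libraries and did not pass, with log2 differences of -0.35 (95% interval -0.67 to -0.04) and -0.37 (-0.69 to -0.04). Jun was at 323, 323 and 324 FPKM after cGAMP, within the 297 to 351 FPKM under PBS, a difference of 0.02 (-0.18 to 0.22). Junb differed by -0.13 (-0.39 to 0.13). With values scaled by total reads instead, the median of all genes shifted by -0.11, Fos (-0.49) and Egr1 (-0.50) passed as well, and 27.8% of all calls were higher instead of 61.9% (49.4% with quantile normalisation). Relative to the median of all genes in that scaling (-0.14), Fos stood at -0.35 and Egr1 at -0.36. Of the heat shock and metal response genes 2 rose and 1 fell, and their summed level was 1229 to 1369 FPKM after cGAMP and 1162 to 1413 FPKM under PBS.

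In implanted ECs the 7 genes did not move together. Nr4a1 and Ier2 fell, 2 of 7 against 18.8% of all tested genes, and 0 rose (20.3%). Nr4a1 was at 39.8, 33.5 and 35.8 FPKM after cGAMP, below its 50.8, 45.1 and 48.1 FPKM under PBS, and fell by 0.39 (SE 0.14; limma, Benjamini-Hochberg adjusted p = 0.0352). Ier2 was at 98.3, 89.8 and 91.7 FPKM, below its 121, 104 and 116 FPKM, and fell by 0.28 (SE 0.09; adjusted p = 0.0271). These 2 were the members separated downwards, against 22.8% of all tested genes.
Single libraries decided both calls. Nr4a1 did not pass without implanted PBS 1 (-0.35) or 3 (-0.39) or without implanted cGAMP 2 (-0.34) or 3 (-0.38), and Ier2 did not pass without the same libraries (-0.23, -0.27, -0.25 and -0.27) or without the other 4 groups.
Junb went the other way, with 325, 298 and 260 FPKM after cGAMP above its 248, 218 and 249 FPKM under PBS (1 of 7 separated upwards, against 22.4% of all tested genes). Its log2 difference of 0.30 (95% interval 0.04 to 0.56) did not pass (adjusted p = 0.0643), although it did without implanted cGAMP 3 (0.39) or MMTV-PyMT PBS 1 (0.30), with voom on recovered reads (0.30; adjusted p = 0.0484) and with the replicate number as a block (0.30; adjusted p = 0.0402). Jun, at 232, 221 and 212 FPKM, overlapped its 184 to 214 FPKM under PBS, with a difference of 0.17 (-0.03 to 0.37). Fos (-0.26), Fosb (-0.21) and Egr1 (-0.14) overlapped too, with 95% intervals of -0.58 to 0.05, -0.63 to 0.20 and -0.46 to 0.19.

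The scaling of the libraries weighed most on this tissue. The authors' FPKM denominators were 0.735 to 0.830 times the recovered reads in the implanted cGAMP libraries and 0.964 to 1.004 times in the implanted PBS libraries. With values scaled by total reads, the median of all genes shifted by -0.23 and 22.3% of all calls were higher instead of 52.0%. In that scaling Fos (-0.58), Fosb (-0.53) and Egr1 (-0.45) passed as lower beside Nr4a1 (-0.70) and Ier2 (-0.60), and Junb (-0.02) and Jun (-0.15) changed sign. Relative to the median of all genes in that scaling, Junb stood at 0.23 and Jun at 0.10, and Fos at -0.33. With quantile normalisation 39.1% of all calls were higher and 6 of the 7 genes passed as lower, Jun among them (-0.34), and Junb was at -0.29. Nr4a1 and Ier2 were lower in all scalings tried.
Markers of other cells moved as well. The leukocyte markers summed to 50.4, 57.5 and 238 FPKM in implanted cGAMP libraries, the highest value in library 2, against 29.4 to 67.7 FPKM under PBS, the fibroblast markers summed to 253 to 602 FPKM against 234 to 269 FPKM, and 4 of the 5 fibroblast markers were higher, or 1 when scaled by total reads and 2 with quantile normalisation. The epithelial markers summed to 422 to 840 FPKM against 771 to 1029 FPKM, with 3 of the 10 lower and 0 higher. The heat shock and metal response list summed to 1353 to 1414 FPKM against 1223 to 1694 FPKM under PBS and held 4 higher and 2 lower genes, but 2 higher and 6 lower when scaled by total reads and 2 and 5 with quantile normalisation. The part of these in the immediate-early values was not tested.

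**Figure D3:**
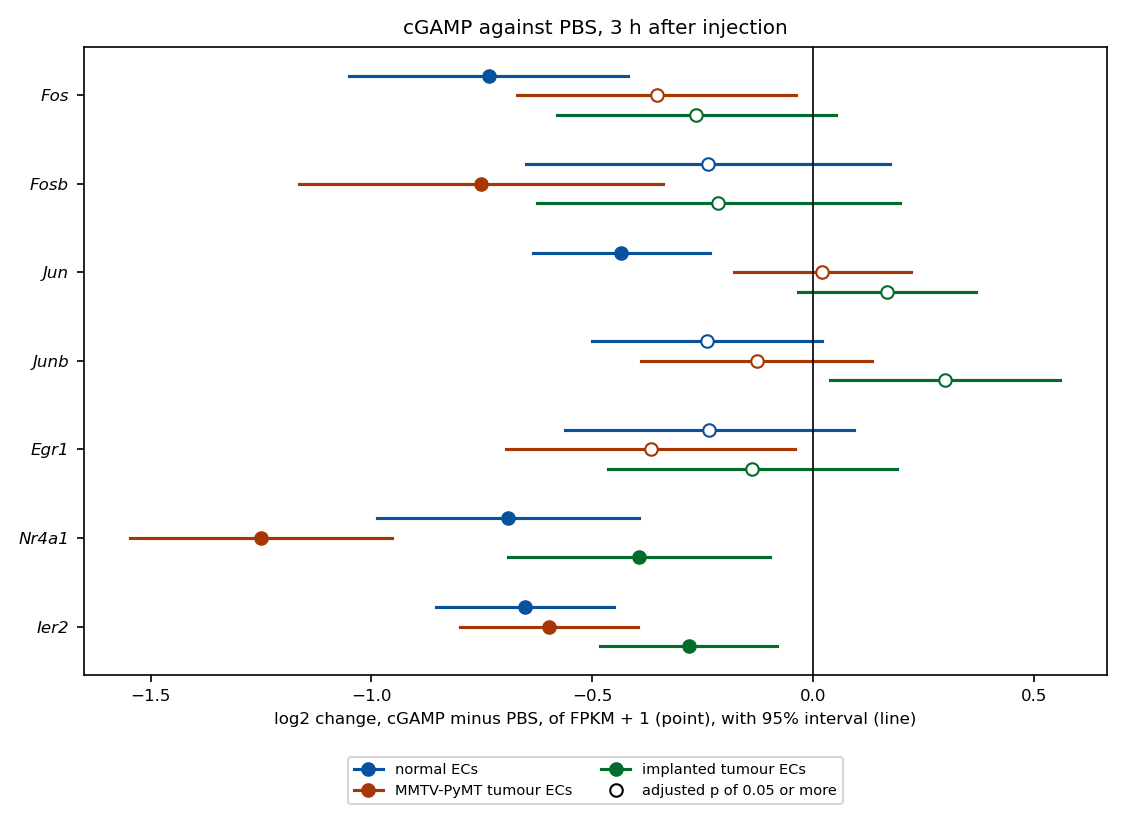
Log2 changes of FPKM + 1 from PBS to cGAMP in the 3 tissues for the 7 genes, with 95% intervals and filled points for an adjusted p under 0.05. Nr4a1 and Ier2 have filled points to the left of 0 in all 3 tissues, and Jun and Junb lie to the right of 0 in implanted ECs with open points, a sign that turns with scaling by total reads.

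Whether the cGAMP response itself differed between tissues was tested as a difference of changes. Jun responded differently in implanted than in normal ECs, by 0.60 on the log2 scale (SE 0.13; limma, Benjamini-Hochberg adjusted p = 0.00509), from a fall of 0.43 in normal ECs and a difference of 0.17 in implanted ECs. Junb differed by 0.54 between the same tissues (SE 0.17; adjusted p = 0.0405). These were 2 of 7 genes, against 12.5% of all tested genes that differed upwards. Between MMTV-PyMT and normal ECs Jun differed by 0.46 (SE 0.13; adjusted p = 0.0467), 1 of 7 against 5.48%. Between implanted and MMTV-PyMT ECs Nr4a1 differed by 0.86 (SE 0.20; adjusted p = 0.00975), 1 of 7 against 7.34%, since its fall was the larger one in MMTV-PyMT ECs. The comparisons share libraries in pairs and are not independent.
Fos, Fosb, Egr1 and Ier2 did not pass in any of the 3 tests of a difference. For Fos the intervals were -0.07 to 0.83 (MMTV-PyMT minus normal), 0.02 to 0.92 (implanted minus normal) and -0.36 to 0.54 (implanted minus MMTV-PyMT). Nr4a1 differed by -0.56 between MMTV-PyMT and normal ECs (-0.98 to -0.14; adjusted p = 0.0909) and did not pass, but did with values scaled by total reads (-0.69).
With values scaled by total reads, the implanted minus normal differences of Jun (0.29) and Junb (0.23) did not pass, and the median of all genes shifted by -0.23. Of all calls in the tests of implanted minus normal, MMTV-PyMT minus normal and implanted minus MMTV-PyMT ECs, 26.3%, 39.2% and 37.3% were then higher, instead of 67.3%, 65.4% and 66.4% (49.0%, 55.4% and 48.2% with quantile normalisation). The Junb difference was also lost without normal PBS 1 (0.54) or 3 (0.44), normal cGAMP 2 (0.46), implanted PBS 1 (0.57), 2 (0.48) or 3 (0.57), implanted cGAMP 1 (0.46) or 2 (0.53), MMTV-PyMT PBS 3 (0.54) or MMTV-PyMT cGAMP 3 (0.54). The MMTV-PyMT minus normal difference of Jun was lost without normal PBS 1 (0.45) or 3 (0.38), normal cGAMP 1 (0.46) or 2 (0.39), MMTV-PyMT PBS 2 (0.44) or 3 (0.41), MMTV-PyMT cGAMP 1 (0.46), 2 (0.46) or 3 (0.45), implanted PBS 2 (0.46) or 3 (0.46), or implanted cGAMP 3 (0.46). The Nr4a1 difference between tumour models was lost with quantile normalisation (0.65; adjusted p = 0.0527) and with no single library.

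Because a ratio of 2 genes within a library does not depend on the factor by which a library was scaled, Fos and Fosb were set against Jun and Junb. The ratio of Fos plus Fosb to Jun plus Junb, in FPKM, was 1.92, 1.76 and 1.81 in normal PBS libraries and 1.48, 1.47 and 1.37 in normal cGAMP libraries, without overlap. It was 1.72, 1.47 and 1.76 in MMTV-PyMT PBS libraries and 1.46, 1.29 and 1.19 after cGAMP, just without overlap. In implanted ECs it was 1.36, 1.14 and 1.26 under PBS and 0.774, 0.950 and 0.934 after cGAMP. After cGAMP the FPKM of Jun plus Junb thus exceeded that of Fos plus Fosb in all 3 libraries, which was the case in no other group. Other FOS and JUN family genes, such as Fosl1, Fosl2 and Jund, were not part of the ratio. Ratios of genes outside the members were not taken for comparison. In each tissue the ratio was thus lower after cGAMP in 3 of 3 libraries. With 3 libraries against 3 an exact permutation test cannot reach below 0.10, and none was run.
Within the FOS genes, Fos over Fosb varied with tissue and treatment, several groups overlapped, and no difference was tested. It was 6.10 to 6.28 in implanted PBS and 5.89 to 6.16 in implanted cGAMP libraries, 8.0 to 9.06 in normal PBS and 5.25 to 6.52 in normal cGAMP, and 8.70 to 12.6 in MMTV-PyMT PBS and 11.6 to 17.1 in MMTV-PyMT cGAMP, the group with the highest mean (14.5). Jun over Junb stayed between 0.714 and 0.926 in all libraries, with group means of 0.758 to 0.90.

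**Figure D4:**
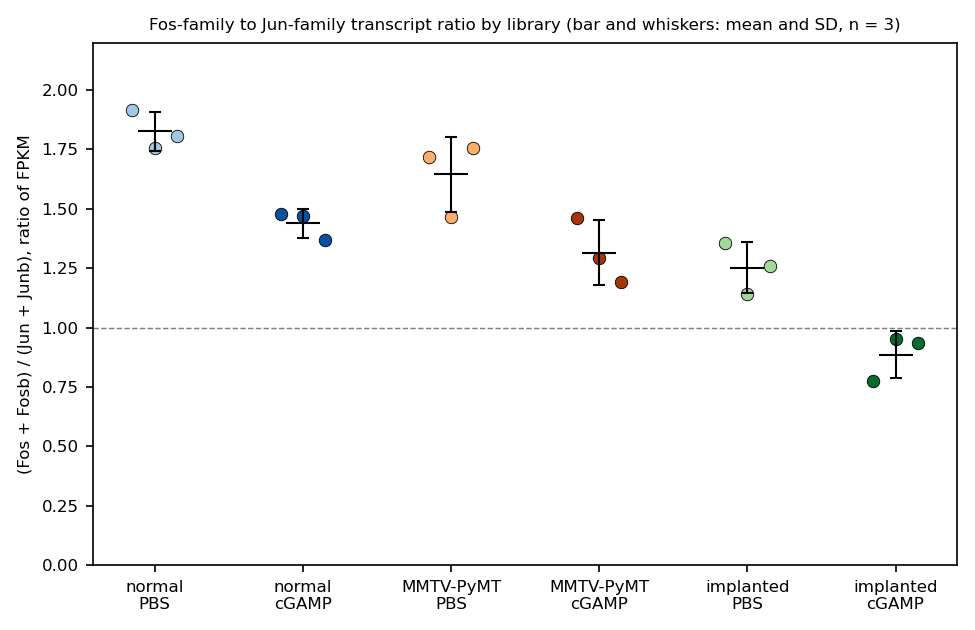
Ratio of Fos plus Fosb to Jun plus Junb (in FPKM) in each library, with the mean and SD of 3 libraries per group and a dashed line at a ratio of 1. The 3 implanted cGAMP libraries lie at 0.774 to 0.950, below the line, and all others above it.

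The 7 genes also rose and fell together between libraries of 1 group. In normal PBS, normal cGAMP and implanted PBS, library 2 was the lowest of the 3 for all 7 genes, and in MMTV-PyMT PBS library 1 was the highest for all 7. In the implanted cGAMP and MMTV-PyMT cGAMP groups no library was the highest or the lowest for all 7. Over the 21 pairs of members, the correlation of deviations from the group mean (log2 scale, 18 libraries) was 0.576 to 0.892 with a median of 0.752, and that of the values themselves 0.531 to 0.965. These are descriptions, and the points of a pair share library and scaling. The same counts and correlations were not taken over all tested genes, so the pattern cannot be called particular to the 7 genes. The summed heat shock and metal response genes followed the same libraries in normal PBS, where library 2 was lowest (1180 FPKM) and library 3 highest (1399 FPKM). In normal cGAMP, by contrast, library 2 held their highest sum (1250 FPKM) and the lowest value of all 7 members. Library 3 of that group held their lowest sum (1041 FPKM) and the highest value of 6 members. In implanted PBS library 1 held their lowest sum (1223 FPKM) and the highest value of 6 of the 7 members, and in MMTV-PyMT PBS library 2 held their highest sum (1413 FPKM) and the lowest value of 6 members.

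**Figure D5:**
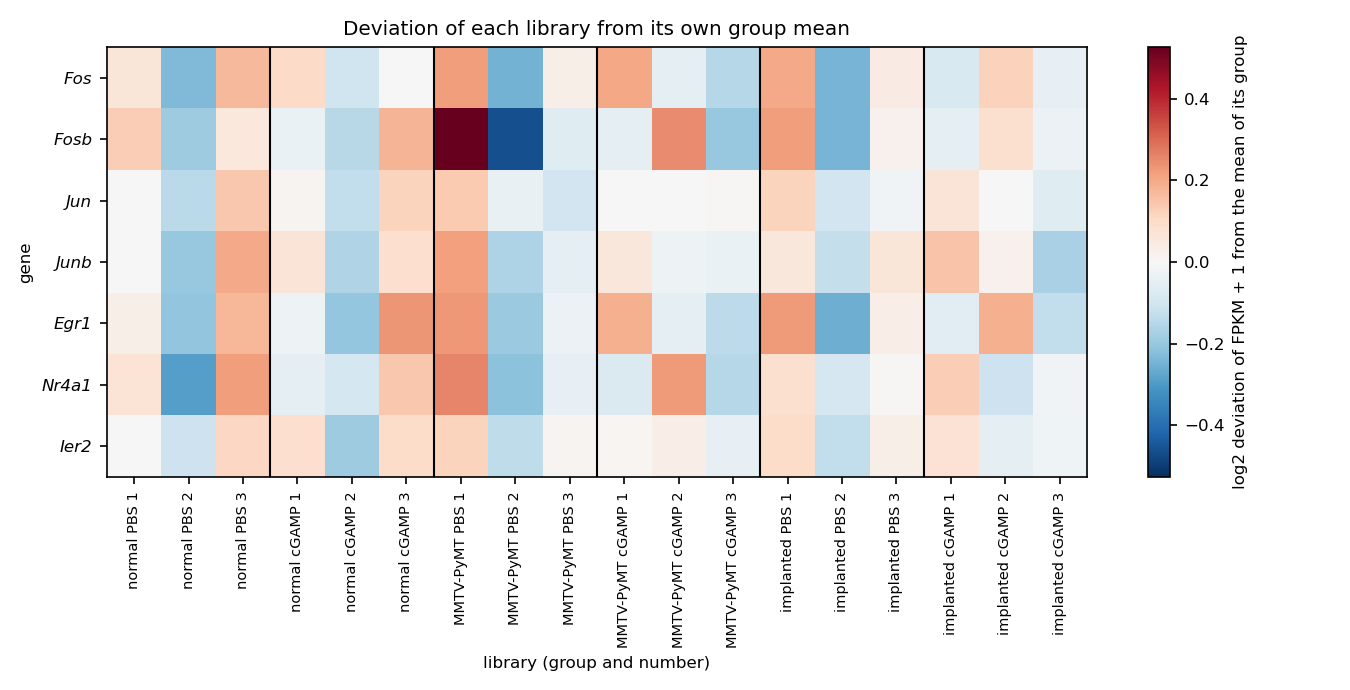
Log2 deviation of FPKM + 1 of each library from the mean of its own group, for the 7 genes (vertical axis) and 18 libraries (horizontal axis), with red above and blue below the mean and lines between groups. Whole columns take 1 colour, such as normal PBS 2 (mean deviation of the 7 genes -0.20), and Fosb in MMTV-PyMT PBS has the widest spread.

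Outside the 7, the genes whose log2(FPKM + 1) followed each member most closely over the 18 libraries were listed, as a description. Nr4a1 was most like Btg2 (Pearson r = 0.946), a primary response gene that restrains proliferation, Nacc2 (0.923) and Bcdin3d (0.921), and Ier2 was most like Parm1 (0.960), Btg2 (0.959) and Adra2c (0.954), an adrenergic receptor. Fos was most like Car8 (0.984), Adra2c (0.962) and Prps2 (0.958). Jun was followed by Fgfr1op2 (0.956), Car8 (0.941) and Zfp36 (0.926), whose product degrades short-lived messenger RNAs, and Junb by Zfp36 (0.915), Emc7 (0.909) and Stag1 (0.898). Egr1 was most like Adcy5 (0.978), an adenylyl cyclase, Mllt6 (0.965) and Tmem56 (0.964), and Fosb most like Agk (0.943), Hexim1 (0.917) and Nr1d1 (0.916), a clock repressor. All libraries of a group share their mean in these values, so genes with similar differences between groups rank high.

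The AP-1 relatives of the 7 genes took another course after cGAMP. Of 11 other AP-1 family genes 9 were in the table (Jund and Batf were not analysed here), and of these 7, 5 and 7 rose and 0 fell in normal, MMTV-PyMT and implanted ECs, where 13.7%, 7.42% and 20.3% of all tested genes rose. The median log2 change of these 9 genes was 1.01, 0.53 and 0.92, against -0.43, -0.37 and -0.21 for the 7 members. Under scaling by total reads 7, 6 and 5 rose, and 1 fell in implanted ECs. Batf2, a basic leucine zipper factor of interferon responses, rose by 2.16, 2.71 and 2.85 in the 3 tissues (limma, Benjamini-Hochberg adjusted p = 2.07e-06, 1.23e-07 and 2.71e-08). Atf3, a stress-induced partner of JUN proteins, rose by 0.94 in MMTV-PyMT ECs (85.0 to 160 FPKM; adjusted p = 0.00224) and by 1.57 in implanted ECs (52.4 to 158 FPKM; adjusted p = 3.69e-06). Fosl2, a FOS relative without a strong activation domain, rose by 1.07 in normal ECs (38.6 to 81.8 FPKM), and Fosl1, its close relative, by 1.55, 0.53 and 1.32 in the 3 tissues but from under 1 FPKM. The small MAF genes Mafk (0.93, 1.17 and 1.68) and Maff (1.32, 0.65 and 0.66) rose in all 3 tissues.

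Of 7 other EGR and NR4A factors and EGR corepressors, 5 were in the table. Nr4a3, a nuclear receptor of the same family as Nr4a1, rose by 0.71 in normal ECs (6.33 to 10.9 FPKM; limma, Benjamini-Hochberg adjusted p = 0.0113) and by 1.04 in implanted ECs (2.53 to 6.43 FPKM; adjusted p = 5.36e-04). Nr4a1 fell by 0.69 and 0.39 in these tissues and by 1.25 in MMTV-PyMT ECs, where Nr4a3 had a difference of 0.03 that did not pass (adjusted p = 0.949). Egr3 rose by 0.70 in normal ECs, where Egr1 had the difference of -0.23 that did not pass, and Nab1, an EGR corepressor, rose in MMTV-PyMT (0.38) and implanted ECs (0.91). Under PBS, 4 of the 5 were lower in implanted than in normal ECs, against 23.6% of all tested genes. These were Egr3 (-1.20), Nr4a2 (-1.13), Nr4a3 (-1.06) and Nab1 (-0.37), in the direction of the 7 members.

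Among 40 other primary response genes, 12, 11 and 21 rose and 10, 3 and 4 fell after cGAMP in normal, MMTV-PyMT and implanted ECs. Over all tested genes 13.7%, 7.42% and 20.3% rose and 18.2%, 4.57% and 18.8% fell. In MMTV-PyMT ECs the counts turned to 9 higher and 8 lower when scaled by total reads and to 10 and 8 with quantile normalisation, and in implanted ECs to 14 and 6 and to 11 and 9. Under quantile normalisation in implanted ECs Dusp1, which encodes a MAP kinase phosphatase, changed sign. Btg2, most like Nr4a1 above, fell by 1.15 in normal (270 to 121 FPKM; limma, Benjamini-Hochberg adjusted p = 1.14e-05) and by 1.01 in MMTV-PyMT ECs (286 to 142 FPKM; adjusted p = 5.22e-05). Csrnp1, a nuclear protein, rose in all 3 tissues (0.93, 1.42 and 1.66), and Arc rose by 1.67 in normal ECs, Gadd45g by 1.39 in MMTV-PyMT ECs and Ptgs2, the inducible cyclooxygenase, by 1.45 in implanted ECs. Myc, a proliferation factor, rose by 0.88 in normal ECs, and Nfkbia, an inhibitor of NF-kB, by 1.07 in MMTV-PyMT ECs.
Under PBS, 7 of the 40 were higher and 15 lower in implanted than in normal ECs, and 7 higher and 19 lower in MMTV-PyMT than in normal ECs. The former counts, against 25.0% and 23.6% of all tested genes, became 6 higher and 23 lower when scaled by total reads and 6 and 21 with quantile normalisation. Klf2 and Klf4, flow-responsive factors of quiescent endothelium, were lower in both tumours, Klf2 by -2.52 in MMTV-PyMT and -1.82 in implanted ECs and Klf4 by -2.32 and -2.69, while Phlda1 was higher by 2.09 and 1.69. Between the tumour models Btg2 (-1.53) and Zfp36 (-1.19) were lower in implanted ECs (adjusted p = 4.50e-07 and 2.10e-05), as were 6 of the 7 members.

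The genes that feed these promoters and those that report on ERK activity were read for comparison. Of 19 genes that encode transcription factors and kinases acting on immediate-early promoters, 2, 3 and 2 rose and 5, 0 and 6 fell after cGAMP in normal, MMTV-PyMT and implanted ECs, against the shares of all tested genes given for the primary response genes. When scaled by total reads, 2, 1 and 2 rose and 6, 4 and 11 fell, so that the balance turned in MMTV-PyMT ECs, and with quantile normalisation 2, 3 and 2 rose and 8, 1 and 9 fell. Crem, a CREB family gene with repressor forms, rose in all 3 tissues, by 0.73, 0.70 and 1.12 (limma, Benjamini-Hochberg adjusted p = 0.00271, 0.0088 and 3.72e-05). Mapk14, which encodes p38 alpha, fell by 0.58 in normal and 0.74 in implanted ECs, Mapk3, which encodes ERK1, by 0.53 in normal ECs, and Srf, serum response factor, by 0.66 in implanted ECs. Under PBS 5 of the 19 were lower and 1 higher in implanted than in normal ECs, close to the 23.6% of all tested genes that were lower. The counts were 10 lower and 0 higher when scaled by total reads and 7 and 0 with quantile normalisation. The lower genes included the CREB gene Creb1 (-0.60) and the SRF coactivator Mrtfb (-0.96).
Of 10 ERK feedback genes 8 were higher and 0 lower in implanted than in normal ECs under PBS, where 25.0% of all tested genes were higher and all 7 members were lower. Etv5 (1.44), Etv4 (1.10), Spry4 (0.91) and Dusp5 (0.77) changed most, the first 2 as ETS factors and the others as inhibitors of the pathway (adjusted p = 4.63e-05, 1.19e-05, 0.00162 and 7.46e-05). Under scaling by total reads 7 were higher and 0 lower. In MMTV-PyMT against normal ECs 6 were higher and 1, Spry1, was lower, against 29.8% and 26.6% of all tested genes. After cGAMP 3, 1 and 3 of the 10 rose in the 3 tissues, against 13.7%, 7.42% and 20.3% of all tested genes. Those that fell were 1, 1 and 2, against 18.2%, 4.57% and 18.8%. In implanted ECs the balance turned to 2 higher and 4 lower when scaled by total reads and to 1 and 4 with quantile normalisation, under which Dusp6, a phosphatase of ERK, changed sign.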

How the data were processed

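ECs were sorted after tissue dissociation and libraries were made with a directional kit. Per the labels and the methods of the study, the authors checked reads with FastQC, aligned them to mm10 with STAR 2.7 and counted them per gene with HTSeq. They deposited 1 table of FPKM values (16248 genes, 18 columns). How FPKM were made from the counts, and whether counting used the strand, is not given in the sources used here. A tumour type stands in the names of 12 columns; the 6 without one (treatment and number only) were taken as normal fat pad because no other tissue remained. Columns with no sample numbered 0.

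Values of each gene were whole multiples of 1 read within 0.01 reads for 16248 genes (100.0%), and for 15771 (97.06%) the step matched the exon length of GENCODE M21. Reads per library came to 9185139 to 12201088, and read counts cover counting error only. Replicate pairs all differed beyond sampling noise (chi-square per gene 4.10 to 31.56), so each library was counted.

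The 13983 genes that reached 1 FPKM in 3 libraries or more (all 7 members among them) were fitted on log2(FPKM + 1), which understates changes of low genes, with 1 mean for each of 6 groups in limma 3.58.1 (eBayes with trend, 2-sided, R 4.3.3). There were 9 comparisons, with Benjamini-Hochberg adjustment over all tested genes. A gene passed, and is said to have risen or fallen, at an adjusted p under 0.05. Python 3.11.15 and pandas 2.3.3 made the summaries and matplotlib 3.10.9 the figures. The fit was tested on simulated data. The members, the lists and the named genes were chosen with earlier results of these data known. Named were all 7 members, up to 4 passed genes with the largest log2 change per list and comparison, the 3 genes most correlated with each member, and 8 further check genes. Dusp1, Dusp6 and a few values of genes named elsewhere were given after they were seen. Alternatives were a pseudocount of 0.1, no filter, a mean FPKM of at least 5, scaling by total reads, quantile normalisation, voom on recovered reads, a fit of only the groups compared, the replicate number as a block, and each library left out.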

Additional observations from a re-analysis of the deposited data

Results flagged for a closer look

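In 4 cases the cGAMP response of a member differed between tissues by a test of the difference itself (limma on log2(FPKM + 1), Benjamini-Hochberg adjustment over all tested genes). Jun differed by 0.60 between implanted and normal ECs and by 0.46 between MMTV-PyMT and normal ECs, Junb by 0.54 between implanted and normal ECs, and Nr4a1 by 0.86 between implanted and MMTV-PyMT ECs. With quantile normalisation all 4 were lost (0.13 and 0.29 for Jun, -0.04 for Junb and 0.65 for Nr4a1). In normal ECs the 3 cGAMP libraries of Jun lay below the 3 PBS libraries, whereas in both tumour models its libraries overlapped. Nr4a1 was lower after cGAMP in 3 of 3 libraries in each tissue, and its other 2 differences between tissues did not pass.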

How the results depend on the processing

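The lower levels of all 7 genes in implanted than in normal ECs, and the 4 falls after cGAMP in normal ECs, passed in the same direction in all 26 alternatives. Scaling changed other results most, and relative to the median of all genes the shifts are given above. With values scaled by total reads 5 members instead of 3 passed in MMTV-PyMT and 5 instead of 2 in implanted ECs after cGAMP, and 0 instead of 2 in the implanted minus normal difference. In implanted against MMTV-PyMT ECs under PBS 7 instead of 6 then passed. With quantile normalisation 6 passed in implanted ECs, and 0 in each of the 3 differences of effect. In MMTV-PyMT against normal ECs under PBS 4 then passed as lower and 0 as higher, instead of 3 and 1. With only the groups compared 1 passed in implanted ECs, 1 in implanted minus normal, 0 in MMTV-PyMT minus normal and 2 instead of 4 in MMTV-PyMT against normal ECs. With a pseudocount of 0.1 or no filter 0 passed in MMTV-PyMT minus normal.

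Signs turned under total reads and quantile normalisation, for Jun after cGAMP in MMTV-PyMT (-0.12 and -0.18) and implanted ECs (-0.15 and -0.34) and for Junb in implanted ECs (-0.02 and -0.29). In MMTV-PyMT minus normal they turned for Junb (-0.02 and -0.13) and Ier2 (-0.08 and -0.11). In implanted minus normal they turned for Fosb (-0.28 and -0.37) and Egr1 (-0.21 and -0.32), under total reads for Nr4a1 (0.00), and under quantile normalisation for Fos (-0.21), Junb (-0.04) and Ier2 (-0.12). In implanted minus MMTV-PyMT they turned for Fos (-0.09 and -0.47) and Jun (-0.03 and -0.16), and under quantile normalisation for Egr1 (-0.18) and Ier2 (-0.01). Apart from Jun in implanted ECs (adjusted p = 0.0111 under quantile normalisation, limma), none of these passed. The cause was not tested.

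With each library left out in turn, 4 to 4 members passed after cGAMP in normal, 2 to 3 in MMTV-PyMT and 0 to 3 in implanted ECs, 0 to 1, 1 to 2 and 1 to 1 in MMTV-PyMT minus normal, implanted minus normal and implanted minus MMTV-PyMT, and 2 to 4, 7 to 7 and 6 to 7 in MMTV-PyMT against normal, implanted against normal and implanted against MMTV-PyMT ECs. Signs turned for Jun in MMTV-PyMT ECs (-0.03 to 0.09), Ier2 in MMTV-PyMT minus normal (-0.04 to 0.11), Fosb (-0.10 to 0.13) and Egr1 (-0.03 to 0.21) in implanted minus normal, and Fos in implanted minus MMTV-PyMT (-0.03 to 0.21).

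Libraries of 1 number did not deviate together (45 pairs, r of -0.35 to 0.29, 8 over 0.1; 4 of 18 libraries matched their own number best). With the number as a block 3 members instead of 2 passed in implanted ECs (Junb, 0.30) and 3 instead of 2 in implanted minus normal (Ier2, 0.37). Each group had 3 libraries, and each member value rested on 990 reads or more.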
